A study of Mus musculus with 2 samples.

Results

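The receptors through which neurons answer GABA, glycine and glutamate were followed across 2 mouse cerebellar sections that held HER2+ breast cancer brain metastases. The genes were taken by symbol: every measured gene whose symbol begins with *Gabr* and a further letter, *Gria*, *Grik*, *Grin*, *Grm* or *Glra*, followed by a number. This gave 43 of the 19465 genes measured. They comprised 6 alpha, 3 beta, 3 gamma and 3 rho subunits of the GABA-A receptor, 4 alpha subunits of the glycine receptor, 4 AMPA, 5 kainate and 7 NMDA receptor subunits and 8 metabotropic glutamate receptors. The rule reads symbols alone, but it was set with earlier results of these data known.

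GABA-A and glycine receptors are ligand-gated chloride channels that carry fast inhibition, glycine mainly in the spinal cord and brainstem and GABA throughout the brain. AMPA, kainate and NMDA receptors are glutamate-gated cation channels, and the metabotropic glutamate receptors act through G proteins. In the cerebellum, granule cells send glutamate to Purkinje cells, which are themselves GABA neurons, and each cell type is known for its own set of subunits.

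Both tumors came from HP organoids, mouse mammary tumor organoids with a human HER2V777L transgene under an actin promoter behind a Lox-STOP-Lox element and with PIK3CAH1047R. Tumors had been started with Cre adenovirus in the mammary gland, and the organoids grown from them were labeled with luciferase and injected by stereotaxis into the cerebellum of syngeneic B6 mice, 5 months old by the study's methods. Neither mouse was treated, and a brain without tumor was not analysed here. The labels name the organoids HP-F1 for section 1 and HP-B6 for section 2. Each section was 5 µm thick, fixed in formalin, and read with the Visium CytAssist assay, in which pairs of probes against mouse transcripts are counted as unique molecular identifiers (UMIs) in barcoded spots. A spot can hold several cells, and the number of probes per gene was not known here. Levels are therefore compared between places for the same gene and not between genes. Where a gene is called low, rare or most counted, this refers to its UMIs here and not to amounts of RNA.

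Spots were called tumor, edge or neural from marker lists that hold none of the 43 genes. The 12 epithelial and 12 stromal genes of the tumor lists were set against 23 neural genes in each spot and its neighbors. Edge spots, taken from both sides of the border, lay within 2 array steps of the other side. Section 1 gave 2325 neural, 246 edge and 740 tumor spots, and section 2 gave 2693, 340 and 910. Tumor spots were deeper, with medians of 54970 and 40190.5 UMIs per spot in the 2 sections, where neural spots had 7486 and 9580. The 2 tumors differed from each other. Summed epithelial markers, among them the keratin gene *Krt7*, stood at 14739 counts per 1000000 UMIs (CPM) in tumor spots of section 2 but at 70.6 CPM in those of section 1, beside 31.2 CPM in its neural spots. Summed stromal markers, collagen genes among them, were at 77784 CPM in section 1 and 11182 CPM in section 2. The label of a mammary tumor was thus borne out by epithelial markers in section 2 and not in section 1, and each tumor value below is given for each section. Levels are CPM scaled by the TMM method. A change is a log2 fold change from edgeR's quasi-likelihood test on UMIs summed per section and region, with the section as a block, and was called where the adjusted p over all genes was under 0.05.

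Upstream windows of 3 members are shown because these members were called higher in different kinds of neural spots. They belong to the gene with the largest called rise in each kind of neural spot described below, as far as RefSeq's table (GRCm38.p6) held a window, which it did for 30 of the 43 genes. *Gria1* (Purkinje) and *Glra1* (pons) rose more but had no window there. *Gabra5* was highest in pons marker spots, and its call in myelin marker spots was lost with clearer spots, as given below. Each is the 250 bases before a start site, 5′ to 3′, in lower case with CANNTG in capitals. CANNTG, searched as these letters and equal to its own reverse complement, is the E-box bound by basic helix-loop-helix factors. It occurred in 66.2% of all 32851 windows of this length and in 16 of the 37 windows of the members (43.2%).
*Gabra6* (granule marker spots), chr11:42321073-42321322, minus strand: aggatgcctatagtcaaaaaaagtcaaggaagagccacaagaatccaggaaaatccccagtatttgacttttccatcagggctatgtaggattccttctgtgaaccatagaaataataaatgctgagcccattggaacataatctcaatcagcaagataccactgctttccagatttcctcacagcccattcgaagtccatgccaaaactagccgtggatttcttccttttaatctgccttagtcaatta
*Gria4* (Purkinje marker spots), chr9:4796235-4796484, minus strand: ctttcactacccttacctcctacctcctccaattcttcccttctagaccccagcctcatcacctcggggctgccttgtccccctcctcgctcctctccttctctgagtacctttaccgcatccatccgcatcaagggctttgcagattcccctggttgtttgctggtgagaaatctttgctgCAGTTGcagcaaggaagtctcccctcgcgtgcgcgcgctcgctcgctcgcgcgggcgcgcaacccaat
*Gabra5* (pons and myelin marker spots), chr7:57510060-57510309, minus strand: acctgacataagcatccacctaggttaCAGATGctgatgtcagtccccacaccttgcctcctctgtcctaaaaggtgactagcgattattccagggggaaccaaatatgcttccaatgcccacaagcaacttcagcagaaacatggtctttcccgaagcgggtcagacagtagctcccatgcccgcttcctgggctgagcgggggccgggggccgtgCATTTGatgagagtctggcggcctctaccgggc
The window of *Gabra6* held no CANNTG, that of *Gria4* held 1 and that of *Gabra5* held 2. These are matches of letters and not sites of binding. The window of *Gabra5* lies within the span of the gene (chr7:57407669-57591016), before a start site inside it.

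Receptor transcripts were scarce in both tumors. All 43 members together made 2922 CPM of the neural spots of section 1, 1077 CPM of its edge and 286 CPM of its tumor spots. In section 2 the same sums were 3729, 1325 and 272 CPM. The tumor level was thus 9.77% of the neural level in section 1 and 7.29% in section 2. In both sections the edge lay between, at 36.9% and 35.5% of the neural level. A list of 11 general neuron genes, such as *Snap25* of the synaptic vesicle fusion machinery, stood in tumor spots at 5.15% and 5.28% of its neural level. Of the 11, 7 are also among the neural genes that drew the border, so their fall was in part set by the choice of spots. In these bulk sums of spots, fewer cells of a type and less RNA per cell cannot be told apart. Counted per spot without scaling, the summed members were still fewer in tumor than in neural spots. Their mean log2 ratio over the 2 sections was -1.63, against -3.57 for scaled levels, and the fall per spot was smaller in section 1. It did not hold for each member. In section 1 *Grik2*, for example, had 1283 UMIs in 740 tumor and 2525 in 2325 neural spots, more per tumor spot.

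**Figure D1:**
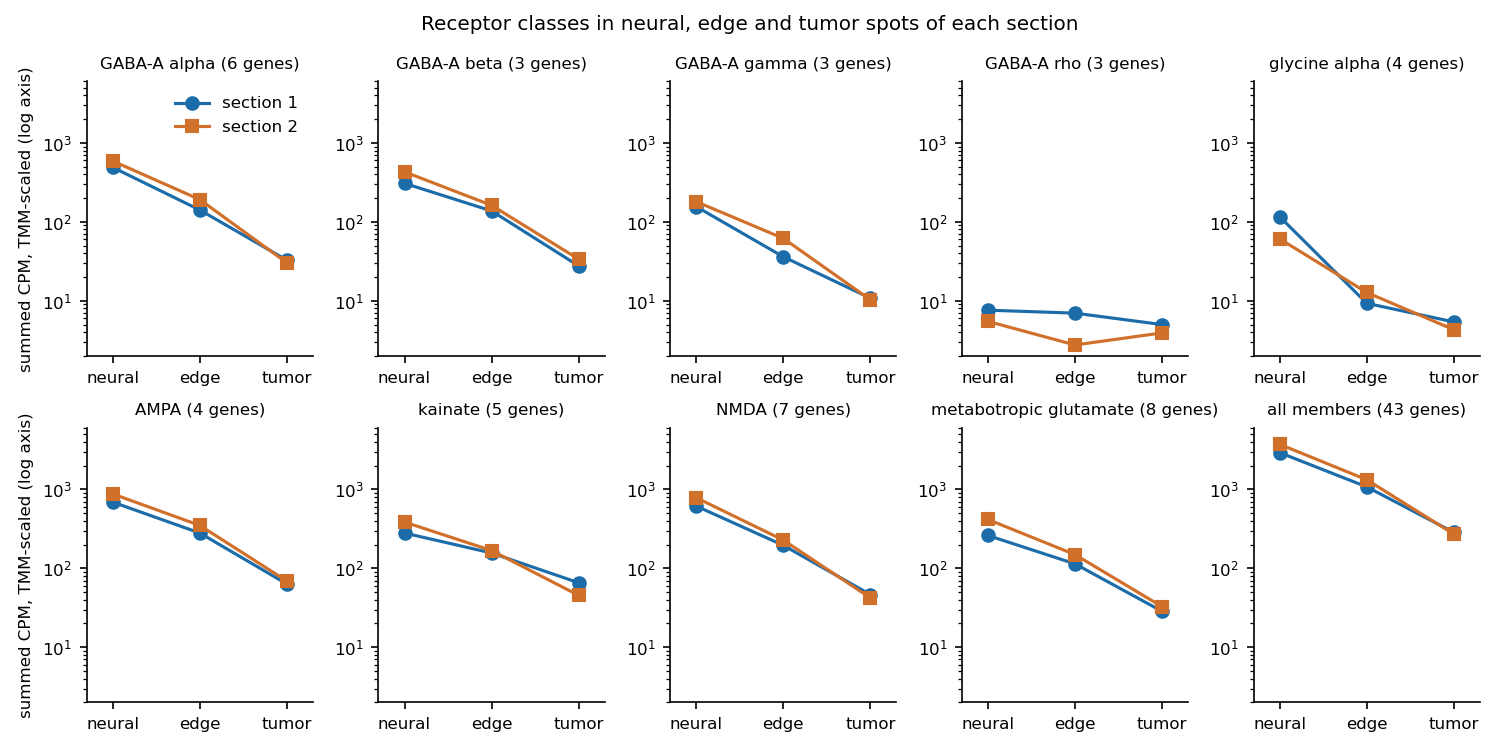
Summed level of each receptor class (TMM-scaled CPM, log axis) in neural, edge and tumor spots, with 1 point per section and region joined by lines within a section. All classes but GABA-A rho fall from neural to edge to tumor spots in both sections, and the rho sums stay between 2.75 and 7.60 CPM.

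Of the 43 members, 39 were lower in tumor than in neural spots and 0 were higher by edgeR's test. Among all 19229 genes tested, 15.9% were lower and 15.0% higher (30.9% in either direction). The median log2 change of the members was -3.22, beside -0.12 for all genes. The 4 members without a call were *Gabrr1*, *Gabrr2*, *Gabrr3* and *Grm6*, and at an unadjusted p under 0.05 the count of higher members was also 0, as it was with DESeq2. In 40 of 43 members the higher of the 2 tumor values lay below the lower of the 2 neural values. The share of all genes with such a gap was not computed, so this count only describes the members.

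GABA-A receptor subunits fell in all 3 main groups. *Gabra2*, the alpha subunit of many forebrain and axonal synapses, stood at 46.9 and 35.6 CPM in neural spots of sections 1 and 2, at 13.0 and 13.4 CPM in edge spots and at 5.68 and 3.95 CPM in tumor spots. The 3 regions did not overlap, and its log2 change from neural to tumor spots was -3.10 ± 0.27 (SE derived from the test, 2 sections, edgeR adjusted p = 0.00406). *Gabra6*, an alpha subunit known from cerebellar granule cells, differed between the sections in neural tissue, at 21.8 and 63.3 CPM, and was low in both tumors, at 3.92 and 4.56 CPM. Its change of -3.22 ± 0.53 passed the test (adjusted p = 0.0151). All 6 alpha subunits were called lower.

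The beta subunits, which with alpha form the GABA binding site, were all 3 called lower. *Gabrb2* went from 99.7 and 140 CPM in neural spots to 6.37 and 6.99 CPM in tumor spots. *Gabrb1* fell least of the 3, from 45.9 and 50.6 to 8.88 and 9.11 CPM, a log2 change of -2.42 ± 0.21. The 3 gamma subunits, which lend receptors their sensitivity to benzodiazepines, were also called lower. *Gabrg1* (27.0 and 24.8 CPM in neural spots) and *Gabrg3* (17.8 and 11.5 CPM) stood at 2.22 and 2.15 CPM and at 3.20 and 2.53 CPM in tumor spots.

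The rho subunits, which form GABA-gated channels best known from the retina, were near the lower end of what was counted everywhere. *Gabrr2* was at 4.57 and 3.44 CPM in neural and at 2.57 and 2.09 CPM in tumor spots. *Gabrr1* was at 1.54 and 1.24 CPM in neural and 1.24 and 1.03 CPM in tumor spots, and *Gabrr3* at 1.49 and 0.801 and at 1.18 and 0.802 CPM. None of the 3 passed the test in any comparison of regions. Few UMIs stand behind these values, 25 to 89 per gene in the tumor spots of a section.

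Among glycine receptor subunits, *Glra1*, the adult alpha subunit of brainstem and spinal cord, showed the largest change of any member. It stood at 97.4 and 47.4 CPM in neural, 3.57 and 6.54 CPM in edge and 1.64 and 2.53 CPM in tumor spots. The values of the neural spots lay far above all others, and the log2 change from neural to tumor spots was -5.13 ± 0.61 (edgeR adjusted p = 0.00759). Its neural level was uneven, highest in the pons marker spots described below and lowest in Purkinje marker spots in both sections. The part of this mix in the size of the change was not tested. *Glra2*, the fetal alpha subunit, went from 10.2 and 7.34 to 1.70 and 0.577 CPM, and *Glra3* from 4.83 and 3.34 to 1.12 and 0.610 CPM, and both were called lower, as was *Glra4*.

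All 4 AMPA receptor subunits were lower in tumor spots. *Gria4*, a subunit of fast-gating receptors, stood at 208 and 311 CPM in neural, 95.4 and 117 in edge and 20.8 and 22.2 CPM in tumor spots. *Gria2*, whose edited form keeps calcium out of the channel, went from 181 and 155 to 65.5 and 68.5 and then to 7.87 and 8.66 CPM. *Gria1* kept the highest AMPA level relative to its own neural level, with 202 and 301 CPM in neural and 30.0 and 32.6 CPM in tumor spots. The log2 changes from neural to tumor spots were -3.57 ± 0.23, -4.34 ± 0.21 and -2.98 ± 0.22 (edgeR adjusted p = 0.00279, 0.00268 and 0.00307). *Gria1* is also made by the Bergmann glia of the cerebellum.

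Of the kainate receptor subunits, *Grik5*, a high-affinity subunit that works only with the low-affinity ones, fell least, from 91.8 and 97.4 CPM in neural to 20.1 and 23.2 CPM in tumor spots (log2 change -2.13 ± 0.18, edgeR adjusted p = 0.00372). *Grik3* went from 35.0 and 57.1 to 4.64 and 6.99 CPM. *Grik2* is taken up below, since its 2 tumor values were far apart. All 5 were called lower.

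Among the NMDA receptor subunits the change was largest for *Grin1*, the obligatory subunit. It stood at 352 and 412 CPM in neural, 96.3 and 125 in edge and 13.4 and 16.3 CPM in tumor spots, with a log2 change of -4.69 ± 0.21 from neural to tumor spots (edgeR adjusted p = 0.00268). *Grin2c*, a subunit of mature cerebellar granule cells, went from 99.9 and 199 to 9.03 and 10.7 CPM, and *Grin2b*, the subunit of the young brain, from 51.1 and 46.6 to 4.12 and 3.27 CPM. All 7 NMDA subunits were called lower. The weakest call was that of *Grin3b*, a glycine-binding subunit of motor neurons, with 4.65 and 4.31 CPM in neural and 2.45 and 1.06 CPM in tumor spots (log2 change -1.42 ± 0.36, edgeR adjusted p = 0.0431), and no call remained when the block was dropped (adjusted p = 0.0759).

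Of the 8 metabotropic glutamate receptors, 7 were lower in tumor spots. *Grm4*, a presynaptic receptor of granule cell axons, went from 64.6 and 144 CPM in neural to 6.49 and 9.50 CPM in tumor spots, and *Grm7*, another presynaptic receptor, from 32.3 and 50.7 to 2.62 and 2.53 CPM. *Grm6*, the receptor of retinal ON bipolar cells, was the exception. It stood at 3.21 and 2.50 CPM in neural, 4.64 and 4.13 in edge and 2.42 and 3.66 CPM in tumor spots. Its edge values lay above both neural values, but neither this difference (log2 change 0.62 ± 0.35, edgeR adjusted p = 0.340) nor that of the tumor spots (0.09 ± 0.32, adjusted p = 0.842) passed the test.

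The edge was then set against neural spots. It pools spots of the tumor side and of the neural side. A lower edge level therefore cannot show how far from the tumor the neural tissue was already low. edgeR called 23 members lower in edge than in neural spots, 0 higher and 20 neither, where 3.93% of all genes were lower and 3.66% higher (7.59% in either direction). The median log2 change of the members was -1.40 (all genes, -0.03). The called members included *Glra1* (-3.86 ± 0.60), *Gabra5* (-3.05 ± 0.42) and *Grin1* (-1.79 ± 0.18), and all 4 AMPA and all 3 beta subunits. Those without a call included *Gabra6*, at 18.9 and 15.8 CPM in edge spots, *Gabra4* and *Grik3*. The edge did not hold the same mix of neural tissue as the rest. Summed pons markers were at 5.71% and 21.7% of their neural level in edge spots, Purkinje markers at 47.0% and 31.4%, granule markers at 64.1% and 32.5% and myelin markers at 37.7% and 48.0%. Their part in the edge values was not tested. With an edge of 1 array step the count of lower members was 14 (share of all genes not given here).

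From edge to tumor spots edgeR called 17 members lower and 0 higher, where 3.56% of all genes were lower and 0.302% higher (3.86% in either direction). They included all 4 AMPA subunits, *Grin1* (-2.89 ± 0.19) and *Gabrb2* (-2.78 ± 0.21). DESeq2 called 31 and a border drawn from the neural genes alone gave 11 (shares of all genes under these settings not given here). In 35 of 43 members the order tumor, edge, neural held in both sections (share over all genes not computed). The others were the 3 rho subunits, *Glra2*, *Grin2d*, *Grin3b*, *Grm2* and *Grm6*.

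Near the border the members and the neuron genes both fell from the neural to the tumor side. At the first array step on the neural side the summed members stood at 1444 and 1607 unscaled CPM in sections 1 and 2, and at the first step on the tumor side at 1084 and 1052. The neuron genes were at 2113 and 3179 and then at 1541 and 2256 unscaled CPM. At 4 steps into the tumor the members were at 276 and 504, and at 10 steps at 297 and 106. Section 2 thus held more receptor transcripts at 4 steps than at 10, as it did of the neuron genes (1037 and 169). Both sums went up and down again deeper inside. In section 1 the members were at 198 unscaled CPM at 8 steps, 395 at 12 and 211 at 20, and the neuron genes at 332, 499 and 156. In section 2 the members were at 205 unscaled CPM at 12 steps and 282 at 20, and the neuron genes at 310 and 366. On the neural side the members were at 2772 and 3033 unscaled CPM at 5 steps and at 4341 and 3468 at 10 steps. Farther out the sums went apart. At 20 steps the members were at 3265 and 3702 unscaled CPM, while the neuron genes were at 11175 and 10108, against 7283 and 7091 at 10 steps. Both sums also differed between the kinds of neural spots described below. The members ran from 2199 to 6232 CPM over these kinds and the neuron genes from 4665 to 16758 CPM (TMM-scaled). The part of this mix in the values by distance was not tested.

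**Figure D2:**
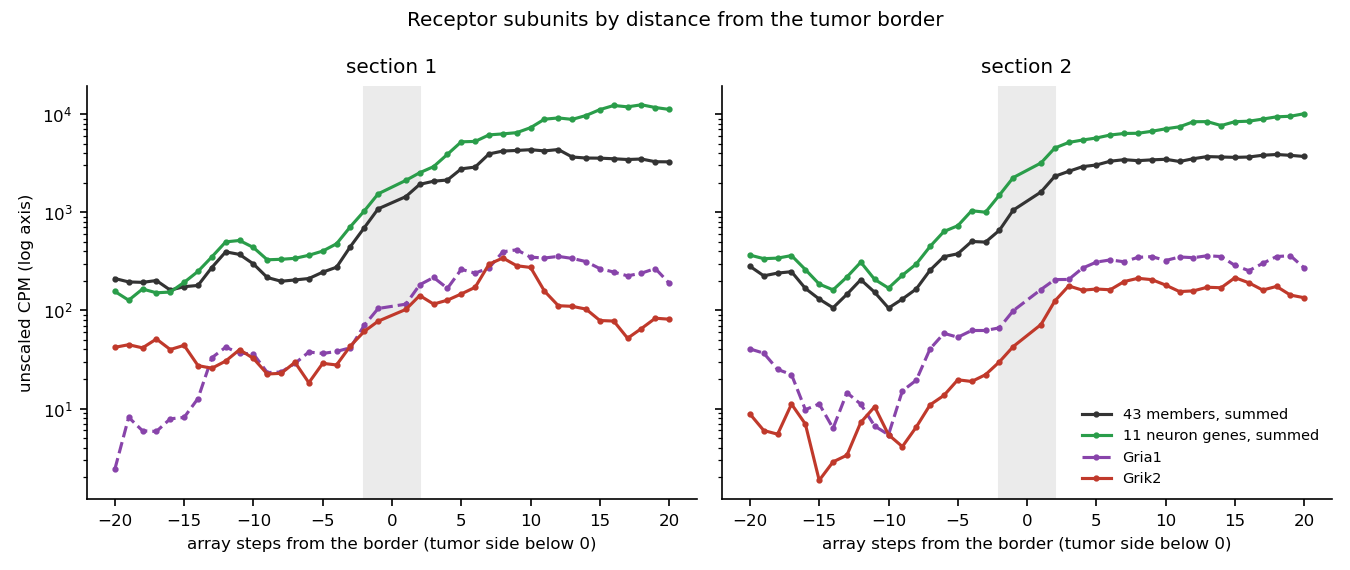
Unscaled CPM (log axis) of the 43 members, of 11 neuron genes, of *Gria1* and of *Grik2* against array steps from the tumor border, for each section, with the edge shaded and the tumor side below 0. Near the border both sums fall from the neural to the tumor side in each section. At 20 steps inside the tumor of section 1 *Grik2* is at 42.0 (35 UMIs) and *Gria1* at 2.40 (2 UMIs), and at 19 steps they are at 44.7 and 8.12.

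Which subunits were found in tumor spots was asked against the neuron genes. A member was counted where, in both sections, it had over 10 UMIs in tumor spots and a tumor level relative to neural above that of each of the 11 neuron genes. The neuron genes ranged from 0.780% to 25.3% of their neural level in section 1 (median 5.96%) and from 1.93% to 18.7% in section 2 (median 5.59%). The highest in both was *Thy1*, which fibroblasts and T cells also express. The median member was at 12.2% and 8.67%. Of the 11 neuron genes, 7 also drew the border, *Thy1* among them, and no member did. The fall of these neuron genes was in part set by that choice, which limits both comparisons. There were 7 members above the neuron genes in both sections, namely *Gabra4*, *Gabrr1*, *Gabrr2*, *Gabrr3*, *Glra4*, *Grin3b* and *Grm6*, and none of them was higher in tumor than in neural spots by the test. The share of all genes that would pass was not computed, so the count only describes the members. All but *Gabra4* were low in neural spots, with means over both sections of 4.48 CPM (*Grin3b*) or less. A ratio of such low levels can be raised by probe background, which was not measured. The same 7 were found in tumor spots at least 4 array steps inside. Without *Thy1* the count was 19, with these 7 among them, and against the 23 neural genes, which include glial ones, it was 4.

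**Figure D3:**
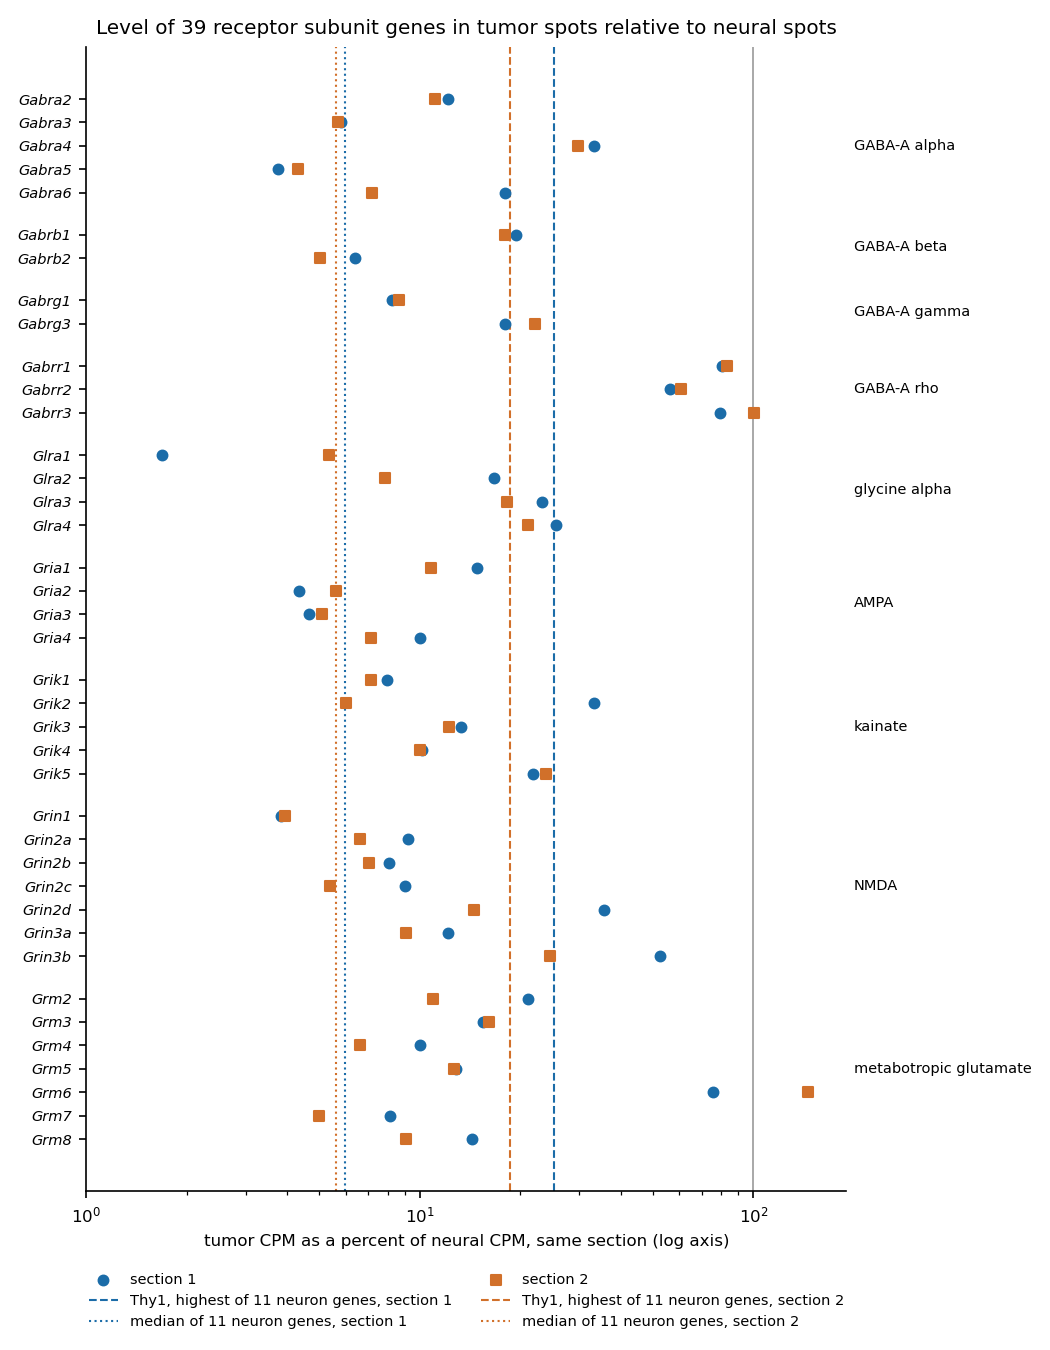
Tumor level of 39 members as a percent of its neural level in the same section (log axis), by receptor class, with a point per section. The dotted and dashed lines mark the median and the highest of 11 neuron genes, and the 3 rho subunits and *Grm6* lie nearest to 100%.

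Of the 7, *Gabra4*, an alpha subunit of extrasynaptic receptors, was counted most. It stood at 19.5 and 21.6 CPM in neural, 12.9 and 17.2 in edge and 6.49 and 6.45 CPM in tumor spots, with counting intervals of 5.67 to 7.39 and 5.59 to 7.40 CPM for the tumor values. Its 2 tumor values lay within each other's interval and below the neural ones (log2 change -1.66 ± 0.26, edgeR adjusted p = 0.0135). UMIs of *Gabra4* were seen in 25.7% and 18.5% of tumor spots and in 17.1% and 19.6% of neural spots. After every spot was thinned to 5000 UMIs, leaving out shallower ones, these shares were 3.97% and 2.33% of tumor and 11.1% and 10.2% of neural spots, so that at equal depth the tumor share was the lower one in both sections. The thinning left out 9 tumor spots of each section and 655 and 346 neural spots.

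The other 6 were rare in both places. *Grm6* had 84 and 114 UMIs in the tumor spots of the 2 sections and was seen in 2.05% and 1.78% of them after thinning, against 1.50% and 1.02% of neural spots, with exact binomial intervals of 1.15% to 3.36% and 1.02% to 2.87% for the tumor shares. *Glra4*, an alpha subunit of which little is known, had 32 and 18 UMIs and stood at 0.923 and 0.577 CPM in tumor and 3.60 and 2.74 CPM in neural spots. These intervals cover counting error alone. A background of probes that bind without their target was not measured here, and low levels such as those of these 6 genes cannot be told apart from it.

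*Grik2*, a kainate receptor subunit of granule cells, had different levels in the 2 tumors. It stood at 111 and 178 CPM in neural spots of sections 1 and 2 and at 80.9 and 62.6 CPM in edge spots, but at 37.0 CPM in the tumor of section 1 (35.0 to 39.1, 1283 UMIs) and 10.7 CPM in that of section 2 (9.57 to 11.9, 333 UMIs). The tumor of section 1 thus kept 33.4% of the neural level and that of section 2 kept 6.01%. The fall was called, with a wide error (log2 change -2.79 ± 0.66, edgeR adjusted p = 0.0394). In section 1 its UMIs were seen in 76.8% of tumor and 49.5% of neural spots. After thinning these shares were 17.9% of tumor and 38.4% of neural spots.

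Within the tumor of section 1 *Grik2* was higher farther from the border. It stood at 38.7 unscaled CPM (35.8 to 41.7) in the spots more than 10 array steps inside and at 27.7 (25.6 to 30.0) in those nearer to the border, while *Gria1* was at 18.3 and 33.0. It was not the only member with this order. *Gabrr2* was at 3.18 unscaled CPM in the farther and 1.52 in the nearer spots, and *Gabrg3* at 3.75 and 2.07. In section 2 *Grik2* was lower in the farther spots, at 6.28 against 12.2. The tumor of section 1 was the one with few epithelial and many stromal transcripts, and its macrophage markers stood at 5586 CPM against 1531 CPM in section 2. The part of any of these in the level of *Grik2* was not tested, and with 1 section of each kind the difference between the tumors has no replicate check. *Grin2d*, an NMDA subunit of interneurons that was chosen after its values were seen, also differed, with 8.39 CPM in the tumor of section 1 and 2.73 CPM in that of section 2, beside 23.5 and 18.7 CPM in neural spots.

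**Figure D4:**
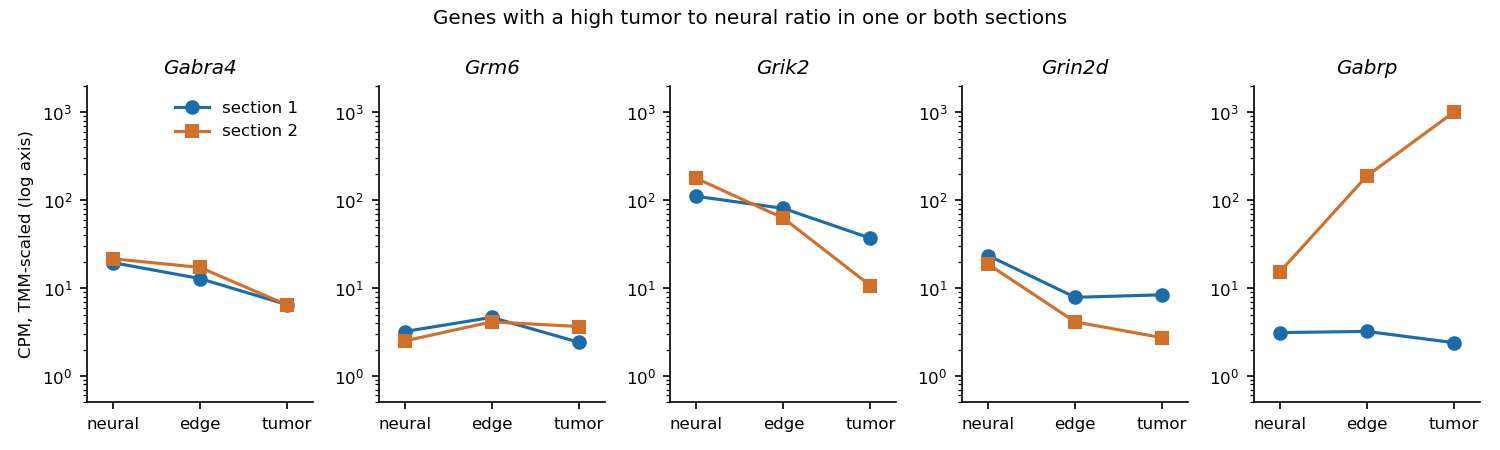
TMM-scaled CPM (log axis) of 4 members and of *Gabrp*, a related gene outside the rule, in neural, edge and tumor spots of each section. *Gabra4* has like tumor values in both sections, at 6.49 and 6.45 CPM, *Grm6* is at 2.42 and 3.66 CPM, *Grik2* and *Grin2d* are higher in the tumor of section 1, and *Gabrp* reaches 1007 CPM in the tumor of section 2.

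Related receptor genes whose symbols the rule leaves out were looked at beside the members, 9 in all. Of these, 7 were called lower in tumor than in neural spots and 0 higher, with a median log2 change of -2.93. Among all genes 15.9% were lower and 15.0% higher, with a median of -0.12. *Gabbr1*, a subunit of the metabotropic GABA-B receptor, went from 431 and 471 to 105 and 134 CPM, and *Glrb*, the beta subunit that ties glycine receptors to the scaffold, from 192 and 211 to 13.3 and 13.6 CPM. *Gabrp*, the pi subunit of the GABA-A receptor, known from epithelia and breast tumors and chosen here after its values were seen, had the reverse order in section 2, with 15.4 CPM in neural, 189 in edge and 1007 CPM in tumor spots. In section 1 it stood at 3.12, 3.21 and 2.39 CPM. The sections went apart, and the log2 change over both (2.85) did not pass the test (edgeR adjusted p = 0.291). After thinning it was seen in 94.2% of the tumor spots of section 2 and 2.05% of those of section 1. Of 26 scaffold and auxiliary genes of these synapses, 22 were called lower in tumor spots and 0 higher (all genes, 15.9% and 15.0%). Their median log2 change was -2.55. The 3 given as examples were picked by their CPM in neural spots, which compares no levels between genes: *Cbln1*, a granule cell protein that links to delta glutamate receptors (304 and 624 to 24.3 and 35.7 CPM; also one of the genes that drew the border), *Cacng7*, an AMPA receptor auxiliary subunit (289 and 383 to 91.4 and 34.8 CPM), and *Dlg4*, the postsynaptic scaffold PSD-95 (315 and 344 to 70.9 and 46.0 CPM).

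Within the neural tissue the members were then compared between 4 kinds of spots, each led by a list of marker genes that holds no member. Granule markers, such as *Neurod1*, led 205 and 586 spots of sections 1 and 2, and Purkinje markers such as *Pcp2* led 495 and 494. Myelin markers such as *Mbp* led 574 and 854. A list of 10 genes, here called pons markers, led 1051 and 759. It holds *Nefm* and *Slc17a6*, and also *Slc6a5*, *Hoxb3*, *Hoxb5* and *Hoxa5*. *Nefm* made 52.9% and 56.7% of the CPM of that list in neural spots. The name pons stands for this list and was not checked against anatomy. Spots hold mixtures: granule marker spots had 2110 and 3196 CPM of Purkinje markers, beside 6028 and 11773 CPM in Purkinje marker spots. Each kind was set against the mean of the other 3 with the section as a block, over 18858 genes. The same kind of spot held the highest level in both sections for 32 of the 43 members (share over all genes not computed). It was the pons kind for 14, the granule kind for 10 and the Purkinje kind for 8, and for none the myelin kind.

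**Figure D5:**
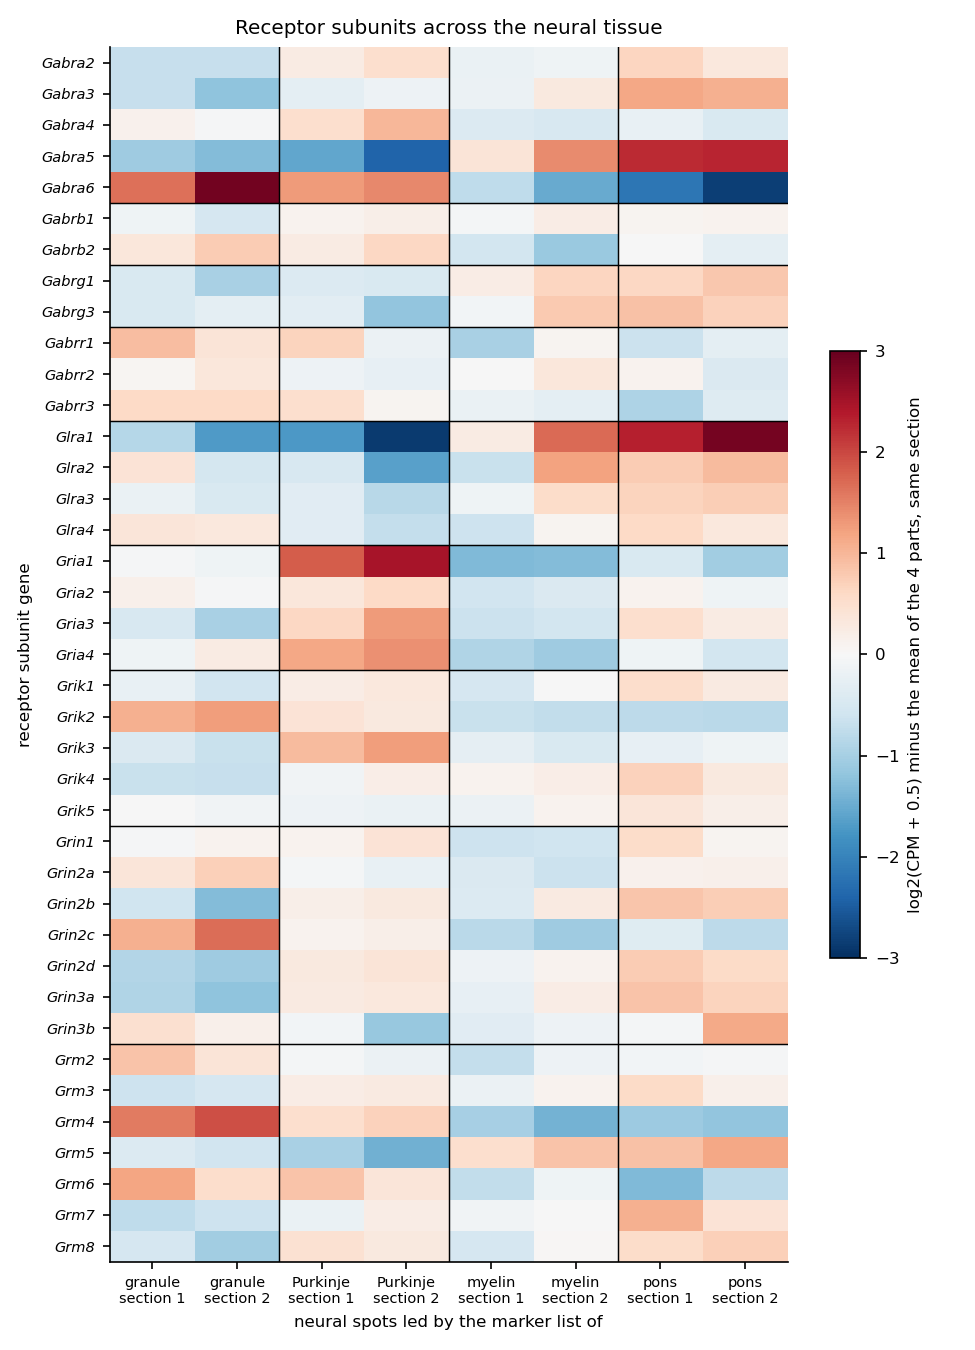
Level of 39 members in 4 kinds of neural spots of each section, as log2(CPM + 0.5) minus the mean of the 4 kinds in that section, with red above and blue below the mean and black lines between receptor classes. *Gabra6*, *Grik2*, *Grin2c* and *Grm4* are highest in granule, *Gria1* and *Gria4* in Purkinje and *Gabra5* and *Glra1* in pons marker spots of both sections.

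Granule marker spots held more of 9 members and less of 17 (all genes, 16.1% higher and 21.8% lower, 38.0% in either direction). The count of 9 was not far from the share of all genes. *Gabra6*, whose upstream window is shown above, stood there at 72.7 and 151 CPM in sections 1 and 2, against 55.3 and 55.1 CPM in Purkinje, 13.1 and 6.60 in myelin and 4.68 and 2.37 CPM in pons marker spots. Its 2 granule values were the highest, and the log2 change was 3.19 ± 0.41 (edgeR adjusted p = 0.00805). *Grm4* was at 223 and 313 CPM there and at most at 131 CPM in any other kind (2.35 ± 0.13, adjusted p = 2.58e-08). *Grin2c* was at 253 and 420 CPM, with 131 and 147 CPM in Purkinje marker spots as the next (1.87 ± 0.16, adjusted p = 2.14e-05). *Grik2* was at 289 and 332 CPM in granule marker spots and between 79.3 and 184 CPM elsewhere. Granule cells are the known site of all 4. *Grm6* also was called higher there, at 9.45 and 3.67 CPM, from few UMIs. Lower members included *Gabra3*, *Grin2b*, *Grin3a* and *Gria3*. Scaled by library size alone, which moved the median of all genes from 0.03 to 0.37, the test called 14 members higher and 13 lower. Without the section as a block it called 6 and 11 (shares of all genes under both settings not given here).

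Purkinje marker spots held more of 11 members and less of 2 (all genes, 6.02% higher and 6.19% lower, 12.2% in either direction). For the lower members this was near the share of all genes. The count of lower members was 4 with DESeq2, with RLE factors and with a minimum of 1000 UMIs per spot. It was 1 with spots whose highest score led by 0.5 (shares of all genes under these settings not given here). All 4 AMPA receptor subunits were among the 11. *Gria1* was at 690 and 1170 CPM, against 191 and 193 CPM in granule, 77.0 and 84.4 in myelin and 142 and 101 CPM in pons marker spots. Both Purkinje values lay above all others, and the log2 change was 2.90 ± 0.19 (edgeR adjusted p = 9.52e-06). *Gria4* was at 509 and 736 CPM there and between 121 and 341 CPM elsewhere (1.68 ± 0.14, adjusted p = 7.30e-07). *Grik3* was at 77.6 and 141 CPM and between 29.4 and 54.2 CPM elsewhere (1.50 ± 0.12, adjusted p = 4.51e-07). Astrocyte markers, which include those of Bergmann glia, were also highest in these spots, at 6574 and 15391 CPM. The lead was slight in section 1, where myelin marker spots were at 6417 CPM, and clear in section 2, where they were at 7824 CPM. The remaining kinds were lower in both sections. The part of astrocyte markers in the AMPA subunits was not tested. The 2 lower members were *Gabra5*, at 5.78 and 2.40 CPM, and *Grm5*, at 9.90 and 5.41 CPM.

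Spots led by pons markers held more of 19 members and less of 8 (all genes, 24.9% higher and 18.5% lower, 43.4% in either direction). The 8 lower members were about as many as the share of all genes gives. *Glra1* stood at 217 and 143 CPM there, against 50.2 and 63.3 CPM in myelin, 23.3 and 5.51 in granule and 12.7 and 2.20 CPM in Purkinje marker spots (log2 change 3.42 ± 0.53, edgeR adjusted p = 0.0178). *Gabra5*, an alpha subunit of extrasynaptic receptors, was at 87.3 and 75.0 CPM and at 24.0 and 40.6 CPM in myelin marker spots (3.10 ± 0.25, adjusted p = 5.94e-05). *Gabra3*, an alpha subunit of brainstem neurons, was at 33.7 and 24.7 CPM and between 4.74 and 14.3 CPM elsewhere (1.53 ± 0.20). For all 3 genes both pons values lay above all others. All 3 gamma subunits were higher as well, with *Gabrg1* at 40.9 and 43.3 CPM. *Gabra6* (-3.41 ± 0.60), *Grik2* (-1.07 ± 0.13), *Grm4* and *Gria1* were among the 8 lower members. General neuron genes were highest in these spots, at 13812 and 16758 CPM against 4665 to 8387 CPM elsewhere, and how far the 19 calls follow them was not tested. Scaled by library size alone, which moved the median of all genes from -0.09 to -0.44, the test called 11 members higher and 13 lower. Without the section as a block it called 12 and 5 (shares of all genes under both settings not given here).

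Myelin marker spots held less of 15 members and more of 3 (all genes, 5.96% lower and 8.91% higher, 14.9% in either direction). For the higher members this was near the share of all genes. The lower ones included all 4 AMPA subunits, with *Gria1* lowest (-1.79 ± 0.23) at 77.0 and 84.4 CPM. The higher ones were *Gabra5* (1.36 ± 0.28, edgeR adjusted p = 0.0173), *Grm5*, a Gq-coupled receptor of neurons and glia (0.95 ± 0.18, adjusted p = 0.00169), at 28.5 and 28.7 CPM, and *Gabrg1*, a gamma subunit also made by glia (0.63 ± 0.17, adjusted p = 0.0166), at 31.1 and 38.7 CPM. All 3 stood higher still in pons marker spots. The calls of *Gabra5* and *Gabrg1* were lost where only spots with a clear lead of 1 list were kept (adjusted p = 0.407 and 0.121).

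Over the 8 values of a gene, 4 kinds of spots in 2 sections, some members took the same order. Spearman's rho was 1 for *Gabra6* with *Grik2*, *Gria1* with *Gria4*, *Glra1* with *Glra3* and *Gabra5* with *Grm5*, and -0.95 for *Gabra3* with *Gabra6* and with *Grik2*. These pairs were picked as the extremes among the many pairs of members. The values of a section share 1 piece of tissue, so these describe these 8 libraries only.

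Members that lie near each other in the genome were not always highest in the same kind of spot. On chromosome 11 (GRCm38.p6) *Glra1* (chr11:55514239-55608198) and *Gria1* (chr11:57011571-57330244) lie within 1.82 Mb, and *Glra1* was highest in pons marker spots and *Gria1* in Purkinje marker spots of both sections. Elsewhere on the chromosome, *Gabra6* (chr11:42306437-42321072) and *Gabrb2* (chr11:42419515-42632591) were both highest in granule marker spots of both sections, *Gabrb2* at 149 and 212 CPM.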

How the data were processed

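The sections were assayed by Visium CytAssist with mouse probes. Per the labels, the authors used Space Ranger 2.1.1 and mm10, and what they deposited are unnormalized UMI counts for each gene in each tissue-covered spot. Both sections form 1 group, HP, and each was taken as 1 mouse, which the labels do not state. With the section as a block, p-values measure how far differences between regions or neural kinds disagreed between these 2 sections. They do not measure a spread over further mice. Section totals were 63986887 and 71878333 UMIs, and region sums ran from 4954150 to 39343391 UMIs. Array barcodes are fixed positions, and 3096 of them were used in both sections.

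Spots with under 500 UMIs or under 10 genes were left out (91 and 18 spots). The log2 ratio of tumor to neural list UMIs (per 10000, plus 10) was averaged over touching spots and split by Otsu's threshold per section. Patches under 50 spots were dropped, which left out 4 and 56 spots. Neural spots went to the marker list with the highest standardized score. UMIs were summed into 6 libraries of sections and regions and 8 of sections and neural kinds, filtered by filterByExpr (all 43 members passed both) and tested with edgeR 4.0.16 (TMM, glmQLFit, glmQLFTest, R 4.3.3), with Benjamini-Hochberg adjustment over all genes. The fits left 2 and 3 residual degrees of freedom. edgeR moderates the spread of each gene with that of all genes, and the small p-values rest on this as well. Each ± value is the size of the log2 change divided by the square root of the test's F statistic. It shares this moderation and is not the observed spread between the sections. The section was a block, since its regions share 1 piece of tissue. The common dispersion was 0.0902 with it and 0.147 without it over regions, and 0.0215 and 0.0629 over neural kinds. The fits were first tested on simulated data. The simulated dispersion was well below the 0.0902 of the regions, so that test does not show how the region fit behaves at its own dispersion. Intervals are exact Poisson or Clopper-Pearson at the 95% level. Alternatives were DESeq2 1.42.0, RLE factors, library size alone, no filter on low counts, no block, at least 1000 UMIs per spot, edges of 1 and 3 steps, a border from the neural list alone, and neural spots whose highest score led by 0.5. Python 3.11.15 with numpy 2.4.6, scipy 1.17.1, pandas 2.3.3 and matplotlib 3.10.9 served for regions, levels and plots. Upstream windows and positions are RefSeq's for GRCm38.p6, the assembly that mm10 is built on.

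The members and lists were chosen with earlier results of these data known. Members are named with values where they are among the 3 with the highest neural CPM of their class (a rank that served only to choose names), are found in tumor spots beyond the neuron genes, or are among the 3 largest rises in a neural kind. Other genes named were chosen after their values were seen. Of the neuron and granule lists 11 of 12 and 7 of 8 genes were measured. A few members are not reported here by name or drawn singly, though the counts and sums hold all 43.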

Additional observations from a re-analysis of the deposited data

How the results depend on the processing

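The 2 sections are the whole sample, and residual degrees of freedom are few. Genes of about 1 CPM cannot be ordered. The count of members lower in tumor than in neural spots, and 0 higher, was 39 under the alternatives run, except 37 without the replicate block. Fewer members passed with an edge of 1 array step (edge against neural spots, 14 lower). From edge to tumor spots DESeq2 called 31 lower and the border from the neural list 11. Among neural kinds, without the replicate block granule marker spots had 11 lower members and pons marker spots 12 higher and 5 lower. Scaling by library size alone gave 14 higher in granule and 11 higher and 13 lower in pons marker spots. For Purkinje marker spots DESeq2, RLE factors and a minimum of 1000 UMIs each gave 4 lower, and spots with a lead of 0.5 gave 1 lower, as well as 1 higher in myelin marker spots. Shares of all genes called under the alternatives are not given here, so these counts describe the members only.

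The summed members had mean log2 ratios over the 2 sections of -3.57 (tumor over neural) and -1.47 (edge over neural). Library size alone gave -3.88 and -1.51, UMIs per spot -1.63 and -0.548, edges of 1 and 3 steps -1.33 and -1.55 for the edge, and the border from the neural list -1.84 for the edge. In single sections the values were -3.78 to -3.36 and -1.49 to -1.44. The rho subunits turned to 1.40 (tumor) and 0.360 (edge) in UMIs per spot and to 0.0220 (edge) without *Gabrr2*. Members found in tumor spots were 4 against the neural list and 19 without *Thy1*, an alternative chosen after seeing the data.

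Among single members, fitted again under the alternatives, only those without a call changed direction. *Gabrr1* in the edge went to -0.244 (edge of 3 steps) and -0.0459 (neural list), *Gabrr3* in the edge to 0.02004 (RLE), 0.0195 (edge of 1 step), 0.0153 (neural list), 0.0119 (no replicate block) and 0.393 (edge of 3 steps), and *Grm6* in tumor spots to -0.221 (library size alone). UMIs per spot were not among these fits. In section 1 *Gabra4*, called lower, had 225 UMIs in 740 tumor and 444 in 2325 neural spots, more per tumor spot. In section 2 it had 201 in 910 tumor and 647 in 2693 neural spots, fewer per tumor spot. Among all recomputed fold changes of named members, 22 lost their call and 12 gained one. Of the 22, 1 was between tumor and neural spots (*Grin3b*). The median log2 change of all genes from neural to tumor spots was -0.12, -0.44 with library size alone, -0.01 with DESeq2 and -0.02 with RLE factors, and from edge to tumor spots it moved from 0.01 to -0.26 with library size alone. The causes were not tested.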
